A study of Nicotiana benthamiana with 7 samples.

Results

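The stretch described here is the transgene sequence that follows the stop codon of GFP in line 16C. It takes in GFP positions 793 to 1079, which are 287 of the 1931 positions with deposited coverage, and it was chosen by position alone: it begins with the first base after the stop codon and ends where the coverage table ends. Coverage is the number of small RNA reads lying over a position. Other places on the same sequence served for comparison, namely midGFP (GFP positions 294 to 432, 139 positions), against which the sprayed dsRNA was made, the coding sequence 3′ of it (GFP positions 473 to 792, 320 positions) and the 287 positions before GFP position 1.

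The groups were leaves of Nicotiana benthamiana line 16C, homozygous for a GFP transgene, sprayed with dsRNA-midGFP (16C-ds), and leaves of wildtype plants without the transgene sprayed with the same 139-nt dsRNA (WT-ds). Each group had 3 libraries from separate plants. The labels give plants 10 cm tall sprayed at 6 bar, and the paper's methods give ranges that include both values. Each plant gave 2 sprayed leaves, collected 5 days later. Both groups thus received the dsRNA and the pressure, and their labels differ in the transgene alone. 16C is a single transgenic line. The coverage of the 1 library of water-sprayed 16C (16C-w) was not analysed here, because no coverage column bore a name that matched it, so the groups compared hold no plant with the transgene and without the dsRNA.

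In plants, DCL enzymes cut dsRNA into siRNAs that guide the cleavage of matching transcripts. RDR6 can copy a targeted transcript into new dsRNA, and the secondary siRNAs cut from it reach beyond the sequence first targeted, which is called transitivity. A transcript runs on past its stop codon into a 3′ untranslated part up to the poly(A) site. The stretch after the stop codon lies outside the sprayed sequence and can be matched by RNA of the transgene. It therefore bears on the question whether small RNAs lay beyond midGFP. The paper reports that outside midGFP no reads matched the strand complementary to the transcript. It ascribes the sense reads there to degradation of the GFP transcript, because the water-sprayed transgenic plant had them too. Whether this holds after the stop codon was not tested here.

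The last 30 nt before the stretch are shown to mark the point from which distances are counted, with the stop codon in capitals. They end the authors' 605-nt counting region (the region of interest) and lie at GFP positions 763 to 792.

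end of GFP coding sequence: gatgaactatacaaacatgatgagcttTAA

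All distances are given in nt after the last A of this stop codon, at GFP position 792. The sequence behind it was not used here, and neither a terminator nor a poly(A) site was placed on it.

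Where 3 values follow each other, they belong to replicates 1, 2 and 3 in this order. The 6 libraries held 7186316 to 8824820 total reads. The coverage holds fewer bases than the authors' read counts imply. The bases of the reads counted on the region of interest were 1.92 to 2.56 times its summed coverage in 5 libraries and 6.34 times in 16C-ds replicate 2, the library with the most counted reads of its group (4634, against 3309 and 3196) and the lowest coverage. The main group differences after the stop codon are therefore also given without this library. The part of this gap in the results was not tested.

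Small RNA reads lay on the sequence after the stop codon in each 16C-ds library and were all but absent in WT-ds. The 3 transgenic plants averaged 10.7, 3.63 and 9.07 reads per position over the 287 positions. The wildtype plants averaged 0, 0 and 0.0836. The groups did not overlap, and within 16C-ds replicate 2 was the low one. The group means were 7.80 ± 3.70 and 0.0279 ± 0.0483 reads per position (SD, n = 3 each), a difference of 7.77, or 9.86 without 16C-ds replicate 2. A 2-sided exact permutation test of 3 libraries against 3 cannot go below p = 0.10, and it gave this value here. Wildtype plants lack the transgene and the dsRNA covers midGFP only, so low coverage in WT-ds followed from the design. The direction of the group difference on this stretch, here and below, was therefore set beforehand. The differences among the 16C-ds libraries, which come from whole leaves, were not traced to a source. Fewer cells holding these RNAs, less of them per cell, and the gap between counted reads and coverage cannot be told apart. This gap was largest in 16C-ds replicate 2, the low library.

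The order of the libraries stayed the same after scaling to depth. Per 1000000 total reads, the 16C-ds libraries averaged 1.49, 0.484 and 1.23 reads per position. The WT-ds libraries averaged 0, 0 and 0.00991. The group means were 1.07 ± 0.522 and 0.0033 ± 0.00572 (SD, n = 3 each; p = 0.10 in the 2-sided exact permutation test, its lowest value). Without 16C-ds replicate 2, the difference of 1.06 became 1.36.

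Because neighbouring positions share reads, the coverage was also turned into the least number of reads that can produce it, which is the sum of all its rises from one position to the next. In 16C-ds, at least 60, 21 and 54 reads were needed, whereas WT-ds needed 0, 0 and 1. Summed over the libraries, these were 135 reads against 1, or 6.12 against 0.039 per 1000000 total reads. The ratio of these least numbers was 157, with a 95% exact counting interval of 27.7 to 6235 that takes them as read counts. The numbers of 16C-ds are minima, at which the reads would average 51.2, 49.7 and 48.2 nt. The true numbers can be higher. Such intervals cover counting error only. They leave out the differences between plants, and reads copied by PCR are not independent molecules. In the 2 WT-ds libraries with no read at all, a count of 0 allows up to 0.359 and 0.34 reads per 1000000.

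**Figure D1:**
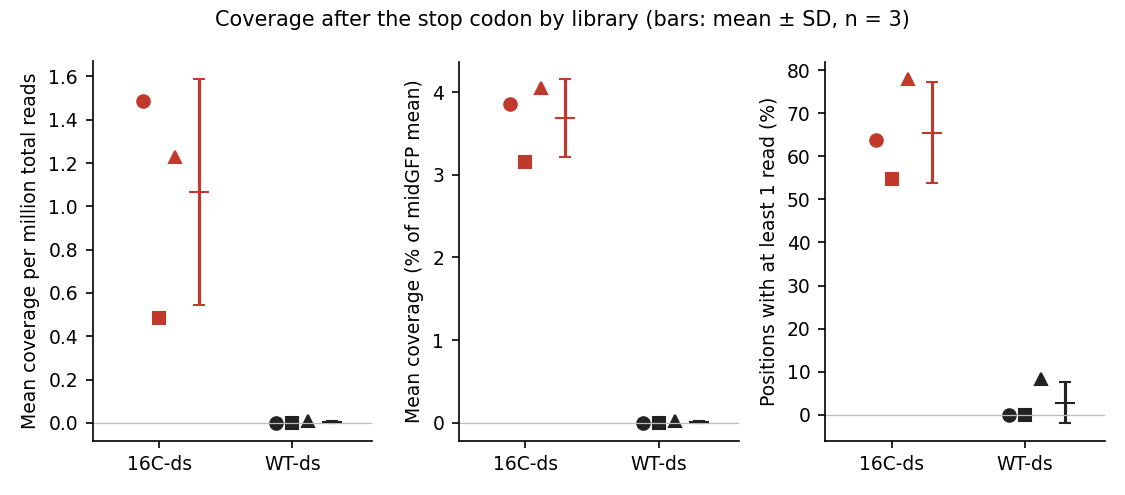
Coverage after the GFP stop codon in each library: mean coverage per 1000000 total reads (left), mean coverage as a percentage of the mean over midGFP (middle) and positions with at least 1 read as a percentage of the 287 positions (right). Circles, squares and triangles are replicates 1, 2 and 3, bars are the mean ± SD of 3 libraries, and the 3 16C-ds libraries (0.484 to 1.49 per 1000000 reads) lie above the 3 WT-ds libraries (0 to 0.00991) in each panel.

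Relative to midGFP, the level after the stop codon was low and close among the 16C-ds libraries. Over midGFP, coverage averaged 277, 115 and 224 reads per position in the 16C-ds plants. In the WT-ds plants it was 344, 282 and 296. The sequence after the stop codon stood at 3.86%, 3.15% and 4.05% of midGFP in 16C-ds, so that midGFP was 25.9, 31.7 and 24.7 times as high. In WT-ds the same percentages were 0, 0 and 0.0282. The group means were 3.69% ± 0.474 and 0.00941% ± 0.0163 (SD, n = 3 each; p = 0.10 in the 2-sided exact permutation test, its lowest value), and the difference of 3.68 percentage points was 3.95 without 16C-ds replicate 2. On midGFP itself the groups were in the opposite order and did not overlap: 16C-ds averaged 206 ± 82.5 and WT-ds 307 ± 32.3 reads per position (SD, n = 3 each; exact permutation p = 0.10). Per 1000000 total reads, midGFP coverage averaged 28.1 ± 11.8 (16C-ds) and 36.1 ± 4.64 (WT-ds; SD, n = 3 each; exact permutation p = 0.40).

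Against the coding sequence 3′ of midGFP, which is likewise outside the sprayed sequence, the level was of the same order. Coding coverage in 16C-ds averaged 16.8, 8.11 and 12.9 reads per position. The stretch after the stop codon reached 63.8%, 44.8% and 70.1% of it, a mean of 59.6% ± 13.2 (SD, n = 3), and was below it in 3 of 3 libraries. Without 16C-ds replicate 2, the mean was 67.0%. WT-ds had 1.30, 0.594 and 0.628 reads per position on this coding sequence. Its reads lay in a few places there, the last of them from 53 to 30 nt before the end of the stop codon in each of the 3 libraries, with up to 3, 7 and 7 reads. The highest value was 17 reads in WT-ds replicate 1, first reached at GFP position 678. At that position WT-ds replicates 2 and 3 had 2 and 3 reads, and the 16C-ds libraries had 14, 11 and 18.

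Before GFP position 1, over an equal number of positions, coverage was far lower. The 16C-ds libraries averaged 0.787, 0.481 and 0.690 reads per position there, and each WT-ds library 0. This stretch was added with the coverage known. In each 16C-ds library the sequence after the stop codon was therefore the better covered of these 2 flanks of the coding sequence.

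The 287 positions were not evenly covered. Of them, 183, 157 and 224 had at least 1 read in the 16C-ds libraries, or 63.8%, 54.7% and 78.0%. In WT-ds, 0, 0 and 24 positions (8.36%) did. The means were 65.5% ± 11.8 and 2.79% ± 4.83 (SD, n = 3 each; p = 0.10 in the 2-sided exact permutation test, its lowest value), and the difference of 62.7 percentage points was 68.1 without 16C-ds replicate 2. All 3 16C-ds libraries covered the same 156 positions, at least 1 library covered 237, and none covered the other 50.

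The 16C-ds libraries were all higher than all WT-ds libraries at 156 of the 287 positions (54.4%), and at 170 without 16C-ds replicate 2. Over the whole coverage table the same held at 38.7% of positions. It held at 289 of the 320 coding positions 3′ of midGFP (90.3%) and at 0 of the 139 positions of midGFP. The opposite order, with all WT-ds libraries higher, was seen at 0 of the 287 positions, against 4.25% of the whole table and 59 of 139 positions in midGFP. Positions are not independent, because 1 read lies over many of them, so these counts were not tested.

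Coverage was interrupted right behind the stop codon. It fell over the last part of the coding sequence, from 27, 15 and 23 reads at 32 nt before the last base of the stop codon in 16C-ds to 15, 6 and 7 at 20 nt before it and 8, 4 and 4 at 12 nt before it. On the last base of the stop codon lay 1, 1 and 0 reads. The first base after it also had 1, 1 and 0 reads, and from there the coverage was 0 in all 3 libraries from 2 to 25 nt after the stop codon, the longest gap that the 3 libraries had in common. The last coding position at 50% or more of the coding mean lay 13, 17 and 19 nt before the end of the stop codon, and the next such position lay 37, 45 and 41 nt after it.

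Downstream of this gap, coverage began at nearly the same place in each 16C-ds library. It started 26, 29 and 26 nt after the stop codon and ran without interruption to 189, 184 and 190 nt. These runs of 164, 156 and 165 positions held 99.4%, 99.9% and 96.8% of all coverage after the stop codon. Since no coverage joined the stop codon to the run, 0 mapped reads spanned from the stop codon to the run in any of the 6 libraries. Whether reads across this gap could be mapped was not tested. A count of 0 allows up to 3 such reads per library.

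**Figure D2:**
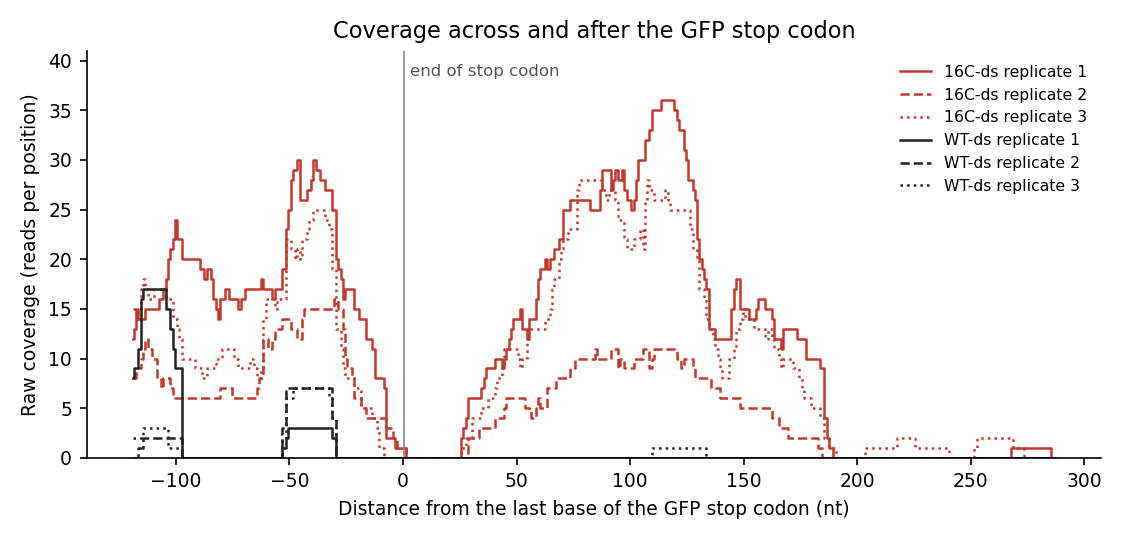
Raw coverage in reads per position across the end of the GFP coding sequence and the sequence after it, against the distance in nt from the last base of the stop codon (grey line), for 3 libraries each of 16C-ds (red) and WT-ds (black). The 3 red lines fall towards the stop codon, stay at 0 from 2 to 25 nt after it, rise to 36, 11 and 28 reads and end between 184 and 190 nt, apart from a few stray reads. WT-ds replicate 3 has 1 read from 110 to 133 nt.

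Within the positions that all 3 libraries covered, 29 to 184 nt after the stop codon, coverage was near the level of the coding sequence. This window was set with the coverage known, and positions at 0 in any 16C-ds library were left out of it by definition. Here the 16C-ds libraries averaged 19.4, 6.68 and 16.1 reads per position, and the WT-ds libraries 0, 0 and 0.154. That was 116%, 82.3% and 124% of the coding mean of the same library, with a mean of 107% ± 22.1 (SD, n = 3), above 100% in 2 libraries and below it in 16C-ds replicate 2. Relative to midGFP it lay between 5.79% and 7.17%.

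In 16C-ds, coverage peaked at 36, 11 and 28 reads, first reached 114, 85 and 78 nt after the stop codon. This was 6.81%, 4.98% and 5.96% of the highest value in midGFP. In replicates 1 and 3 it was above the highest coverage of the coding sequence 3′ of midGFP (30 and 25 reads), and in replicate 2 it was below it (16 reads). The order of the libraries was the same as for the mean.

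Cut into 7 consecutive windows of 41 positions, the 16C-ds profile showed a rise to a single broad maximum and a fall. The first window, 1 to 41 nt after the stop codon, averaged 2.61, 0.878 and 1.56 reads per position. The second had 18.5, 6.78 and 16.4, and the third, 83 to 123 nt after the stop codon, had 30.4, 10.2 and 25.2. The third window was the highest in each of the 3 libraries and held 40.6%, 40.3% and 39.7% of the coverage after the stop codon. From there the mean went to 16.9, 6.46 and 14.2 in the fourth window and to 6.02, 1.07 and 4.07 in the fifth, which ends at 205 nt. The sixth window had 0, 0 and 1.05 and the last had 0.439, 0 and 0.927. WT-ds had 0 in all windows except the third and the fourth of replicate 3 (0.341 and 0.244). The groups did not overlap in the first 5 windows (2-sided exact permutation test, p = 0.10 each, the smallest possible; 0.14 after Benjamini-Hochberg adjustment over 7 windows). In the sixth and the last window they overlapped (exact permutation p = 1 and 0.40, adjusted 1 and 0.467). Without 16C-ds replicate 2 the groups did not overlap in the last window either.

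**Figure D3:**
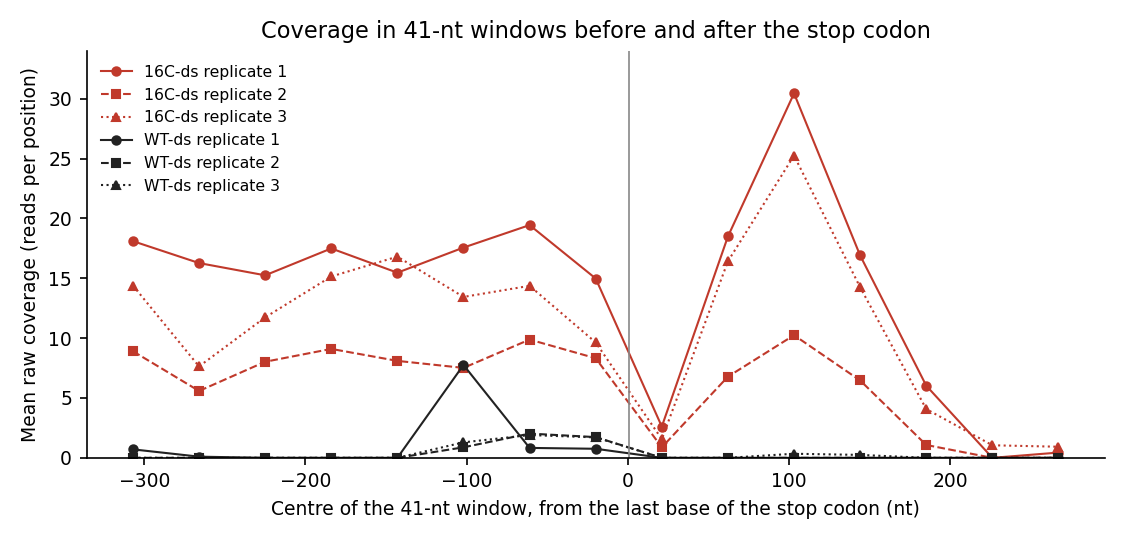
Mean raw coverage (reads per position) in consecutive 41-nt windows before and after the end of the GFP stop codon (grey line), plotted at the window centre for each library of 16C-ds (red) and WT-ds (black). In 16C-ds the windows before the stop codon lie between 5.59 and 19.4 reads, the first one after it at 0.878 to 2.61 and the third at 10.2 to 30.4, and the last 2 windows are at 1.05 or below. In the window from 122 to 82 nt before the end of the stop codon, WT-ds replicate 1 (7.76) lies above 16C-ds replicate 2 (7.51).

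The shape of the profile was shared by the 16C-ds libraries although their levels differed. The point at which 25% of the coverage after the stop codon had been reached lay at 79, 77 and 79 nt. For 50% it lay at 107, 103 and 105 nt, and for 75% at 130, 128 and 132 nt. Each of these points thus fell within 4 nt in the 3 libraries. The longest unbroken run at 50% or more of the library's highest value lay from 60 to 133 nt in replicate 1, from 64 to 148 nt in replicate 2 and from 63 to 134 nt in replicate 3.

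Across the 287 positions, Pearson's r between 2 libraries was 0.971 (replicates 1 and 2), 0.977 (1 and 3) and 0.975 (2 and 3), and Spearman's rho was 0.958, 0.922 and 0.939. Over the 156 positions covered by all 3, r was 0.913, 0.942 and 0.935. Over the 320 coding positions it was 0.626, 0.642 and 0.745. These coefficients describe positions of the same libraries, which share reads and are not independent, and those over 287 positions include the long stretches at 0.

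**Figure D4:**
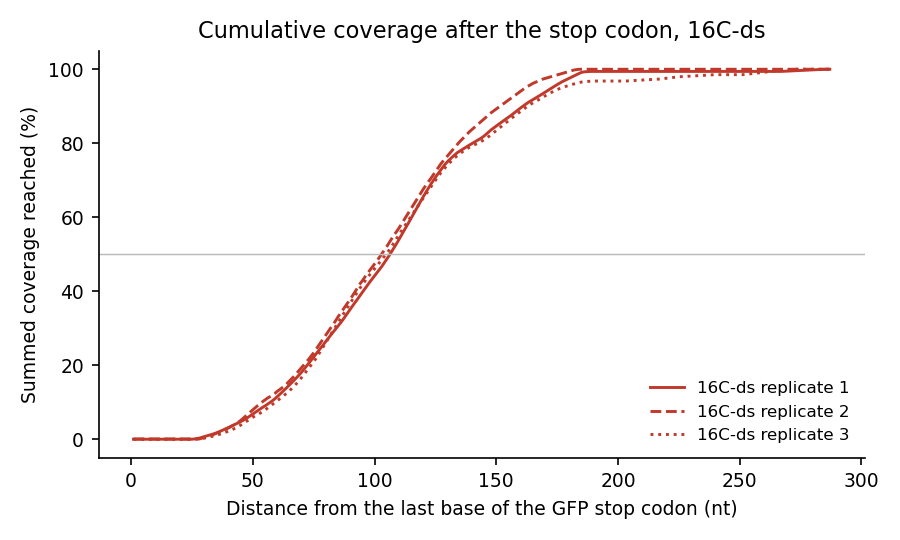
Share of the summed coverage after the stop codon (in percent) that had been reached at each distance in nt from the last base of the stop codon, for the 3 16C-ds libraries. The curves cross 50% (grey line) at 103 to 107 nt, and replicate 2 is at 100% from 184 nt on while replicate 1 gains its last 0.586% in a run of 18 positions with 1 read.

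By the peak rule used here, no finer peak was shared by all 3 libraries. A peak was a position with the highest coverage within 15 nt on both sides and at least 2 times the mean of its library over the stretch. Equally high positions within 15 nt of the next counted as 1 peak, placed at or nearest their middle. Replicate 1 had such peaks 88 and 117 nt after the stop codon (29 and 36 reads), replicate 2 had 1 at 106 nt (11 reads) and replicate 3 had peaks at 83 and 108 nt (28 reads each). Pairs of libraries had peaks near each other, 5 nt apart at 88 and 83 nt in replicates 1 and 3 and 2 nt apart at 106 and 108 nt in replicates 2 and 3. Neither peak of replicate 1 had a partner within 5 nt, or within 10 nt, in both other libraries, so 0 peaks were shared by all 3. This 0 depends on where tied positions were placed. Replicate 2 had its highest value of 11 reads at several positions from 85 to 120 nt. These included 117 nt, where replicate 1 had a peak. With the 10-nt moving average, 1 peak was shared, starting 111, 111 and 108 nt after the stop codon. The positions at 90% or more of the library's highest coverage, a measure added later, lay between 109 and 123 nt in replicate 1, between 76 and 127 nt in replicate 2 and between 77 and 117 nt in replicate 3. These positions were not all adjacent, and the 3 libraries had 8 of them in common, from 110 to 117 nt.

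The largest steps in the coverage were compared among the libraries in stretches of 2 nt on both sides of a position. The largest summed rise was around 105 nt after the stop codon, and those around 29 and 69 nt were among the next largest. A rise around 75 nt, mostly from replicate 3, had the same sum as these last 2 and is not described further. Around 29 nt, coverage rose by 2 reads in each library, at 29, 29 and 31 nt. Around 69 nt it rose by 3, 1 and 2 reads, at 71, 68 and 69 nt, and around 105 nt by up to 2, 1 and 5 reads, between 103 and 107 nt. The largest falls were around 129 nt (4, 1 and 3 reads), around 184 nt (5, 1 and 2 reads) and around 134 nt (4, 1 and 2 reads). The falls of replicates 1 and 3 lay at 130 and 131 nt, at 186 nt in both, and at 135 and 134 nt. Steps taken as shared thus lay up to 4 nt apart, and whether they coincided more closely than other steps was not tested. A rise marks the left end of reads and a fall the position behind their right end. The strand and the length of a read were not given by position, and these steps rest on 1 to 5 reads each.

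Coverage did not fall evenly behind the maximum in replicates 1 and 3. At 140 nt after the stop codon it was 12, 6 and 9 reads in 16C-ds, and at 147 nt it was 18, 6 and 13. Replicate 2 had the same value at both positions.

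The end of the main run was close in the 3 libraries, while the last stray read was not. Positions with at least 5 reads ended 185, 162 and 183 nt after the stop codon, and positions with at least 3 reads ended at 186, 169 and 185 nt. The very last position with a read was at 285, 184 and 273 nt. In replicate 1, a gap of 78 positions from 190 to 267 nt preceded a run of 18 positions with 1 read. Replicate 3 had a run of 37 positions from 204 to 240 nt and another of 22 positions from 252 to 273 nt, each with at most 2 reads. Replicate 2 had none for the last 103 positions. No 16C-ds library had a read on the last 2 positions of the table, or from 191 to 203 and from 241 to 251 nt after the stop codon.

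The signal of WT-ds after the stop codon was 1 read in 1 library. It lay in replicate 3 over 24 positions, 110 to 133 nt after the stop codon, within the stretch that the 16C-ds libraries covered best. The other 263 positions of that library and all 287 of WT-ds replicates 1 and 2 were at 0. In 16C-ds, 104, 130 and 63 positions were at 0.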

How the data were processed

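The libraries were made from small-RNA-enriched RNA and sequenced on an Illumina NextSeq500. The study's methods state that adapters were trimmed and reads mapped to GFP; GEO's processing notes list Bowtie2 and SAMtools, without versions. The coverage signal used here, as the authors deposited it, is the raw number of reads at each position and its 10-nt moving average, also divided by total, miR159 or 24-nt reads. Their counts of reads per length on the region of interest were deposited too and served only for the comparison with coverage. The raw coverage was equal in both deposited tables (11586 of 11586 values), and the moving average was the mean of 10 positions from its own on (11532 of 11532, tolerance 1e-06). A further 10 columns of values had no name that matched a sample, and 12 had a sample's name but a scaling the tables do not explain; neither set was used. How multiply mapping reads were treated is not given in the sources used here.

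GFP positions are table positions minus 852, so that midGFP begins at 294, where the coverage of the 3 WT-ds libraries rises to 10 reads or more. Total reads were recovered from the normalized coverage. A position with at least 1 read was called covered. Groups were compared by 2-sided exact permutation tests over 3 libraries against 3, computed with Python 3.11.15, numpy 2.4.6 and scipy 1.17.1, and figures were drawn with matplotlib 3.10.9. The functions were tested on simulated data. The positions named were the ends of coverage, gaps, highest positions, peaks and positions covered in WT-ds. Also named were 3 of the largest rises and the 3 largest falls that all 3 16C-ds libraries had within 2 nt of a position. The values behind the maximum, the flank of the stop codon and the positions covered by all 3 16C-ds libraries were added after their values were seen. The stretch, the rule and the tests were chosen with earlier results of these data known. The alternatives changed the region, the minimum, the scale, the windows, the smoothing and the denominator, left out each replicate, or used a replicate block. The replicates are separate plants.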

Additional observations from a re-analysis of the deposited data

How the results depend on the processing

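Of 68 values under alternative settings, 65 kept their direction and their side of the threshold or stayed within the spread of the replicates, and 3 moved. The number of shared peaks was 1 with the 10-nt moving average in place of 0, and the mean last position with coverage was GFP position 972 with at least 3 reads and 968.667 with at least 5 reads, in place of 1039.33 with at least 1 read. With 1 library left out, the difference between 16C-ds and WT-ds ran from 6.33 to 9.86 in raw coverage, from 0.854 to 1.36 per 1000000 total reads, from 3.50 to 3.95 percentage points of midGFP and from 56.4 to 68.1 percentage points of positions covered. The level relative to the coding sequence ran from 54.3% to 67.0%, and the positions without overlap from 156 to 170. The exact permutation p stayed at 0.10 in these comparisons, except that it was 0.20 for raw coverage and for coverage per 1000000 reads without any 1 of the WT-ds libraries. With the median over positions in place of the mean, the level relative to midGFP was 2.40 percentage points higher in 16C-ds. With the highest midGFP value as denominator it was 1.86 percentage points higher. That this is less than 3.68 follows from the measure, since the highest value is above the mean. Windows of 7 and of 20 positions were without overlap in 56.1% and 64.3% of cases, against 71.4% of the windows of 41. The replicate block left the differences as they were (7.77, 1.06, 3.68 and 62.7), with an exact sign-flip p of 0.25, the smallest that 3 pairs allow. Same-numbered libraries did not deviate together throughout, with correlations of deviations of 0.905, 0.912 and -0.146 in midGFP and -0.582, 0.511 and 0.156 after the stop codon, so the numbers were not taken to pair the libraries. Depth limits the positions beyond 190 nt after the stop codon, where no library had more than 2 reads.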
